A study of Rattus norvegicus with 20 samples.

Results

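Gene expression in the subcutaneous tissue of obese and lean rats was compared on 10 arrays, 5 from obese and 5 from lean control animals, out of 20 arrays in the series. The arrays were chosen by their titles, and every measured row entered the comparison. Both groups were male ZDF rats of the strain given as Zucker, kept singly with free access to food. Obese rats received a stock diet over 6 weeks, and lean control rats received standard chow (Purina 5008). Diet as labelled thus went with the group, so effects of diet and of obesity cannot be told apart. The labels give no age, no genotype and no name of the fat depot, and each title names its array as a biological replicate. The other 10 arrays came from rats labelled rosiglitazone or resveratrol. They entered the estimate of the spread between arrays and the mean level of each cluster, and their values are given beside those of Gpnmb and Alb.

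The ZDF (Zucker diabetic fatty) rat is a model of obesity and type 2 diabetes, in which the obese animals are known to carry a defective receptor for leptin, the hormone by which fat reports its stores. Subcutaneous fat holds adipocytes, which store triglyceride and release fatty acids under the control of insulin, and also macrophages, fibroblasts, vessels and, in the rat, strands of mammary gland. In obesity, fat tissue is known to gain macrophages that take up lipid, and its adipocytes are known to respond less to insulin.

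RNA was measured on the Rat Gene 2.1 ST array (Affymetrix), and each value is a log2 RMA value, in which 1 unit is a 2-fold difference, of a transcript cluster, meaning the probes on the array for 1 annotated locus. Of 36685 clusters, 14824 carried 1 gene symbol in the platform annotation, and 21032 were not listed there. Values ran from -0.16 to 12.5, and the median of the mean levels was 2.55. A cluster was called when its adjusted p (limma, Benjamini-Hochberg over all clusters) was under 0.05 for obese minus lean.

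The label of the tissue was checked against adipocyte genes. Adiponectin (Adipoq), a hormone made by adipocytes, measured 10.73 ± 0.11 in obese and 10.79 ± 0.12 in lean (SD, n = 5 each). The fatty acid binding protein Fabp4 measured 11.27 ± 0.10 in obese and 11.23 ± 0.16 in lean. The brown fat gene Ucp1 lay below the median level in both groups, at 1.77 ± 0.33 in obese and 1.58 ± 0.15 in lean.

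Several arrays stood apart, and the results that rest on them are given with and without them. The first principal component of the 10 arrays held 40.7% of the variance of the clusters above the median level. It had obese 3 and lean 1 at one end, and lean 2 and obese 1 at the other. The values of obese 3 had an SD of 1.66, the lowest of the 10 arrays. Over the called clusters, with its own array left out of the group means, lean 2 lay nearer to the obese mean in 13 of 31 clusters, while each of the other lean arrays did so in 0 of 31. The obese arrays lay nearer to the obese mean in 26 to 31 of the 31. The 31 clusters were called on these same arrays, which favours such a separation, so these counts only describe the calls. Clusters had a median SD of 0.364 over the obese arrays and of 0.270 over the lean arrays.

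Milk protein genes were present on some arrays of both groups. Casein alpha s1 (Csn1s1), a protein of milk, measured 1.68, 2.05, 11.32, 11.11 and 5.48 in obese 1 to 5, against 6.54, 1.15, 11.39, 11.77 and 11.39 in lean 1 to 5. Alpha-lactalbumin (Lalba), the regulatory subunit of lactose synthase, measured 1.0, 0.99, 8.35, 9.90 and 1.43 in obese 1 to 5, against 1.52, 0.93, 9.17, 10.44 and 9.90 in lean 1 to 5. The high arrays were thus obese 3, obese 4, lean 3, lean 4 and lean 5, and the groups overlapped. Casein kappa (Csn3) was high on the same 5 arrays. None of these genes passed the test (adjusted p = 0.630 to 0.687, limma), and casein beta (Csn2) did not either (log2 difference -2.63, 95% confidence interval -5.13 to -0.13, adjusted p = 0.357). The 11 measured markers of mammary epithelium had a median log2 difference of -1.08, with 0 of 11 called (-0.43 without lean 4), and array means of 2.01 to 6.12 in obese and 1.85 to 7.07 in lean. Adiponectin lay between 10.5 and 10.9 on all 10 arrays.

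**Figure D1:**
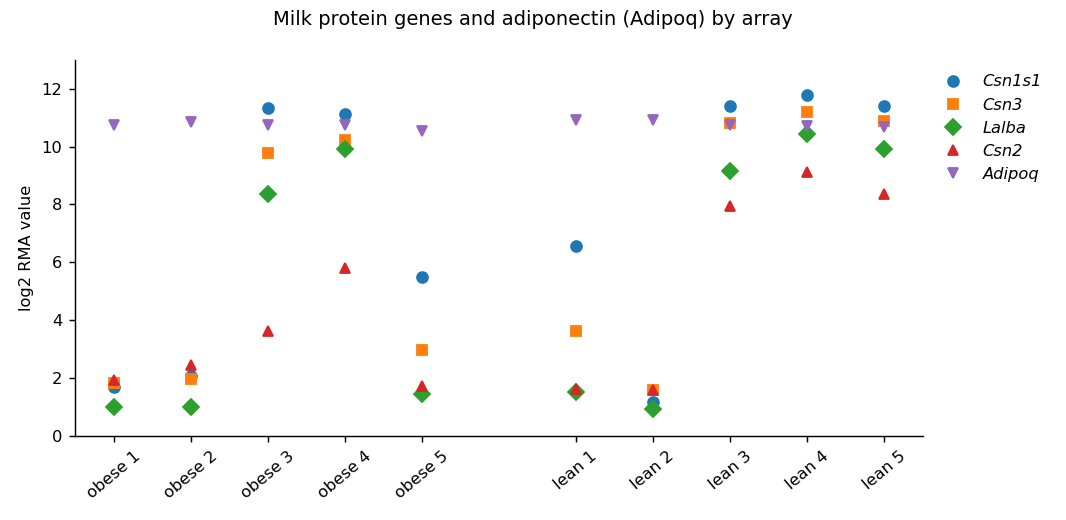
Log2 RMA values of 4 milk protein genes and of Adipoq on each obese array (left) and each lean array (right), 1 marker per gene and array. Csn1s1, Csn3 and Lalba are high in obese 3, obese 4 and lean 3 to 5 (Csn1s1 at 11.1 or more). Csn2 lies at 3.60 in obese 3 and 5.79 in obese 4, against 7.94 to 9.10 in lean 3 to 5. All 4 are low in obese 1, obese 2 and lean 2, while Adipoq lies between 10.5 and 10.9 throughout.

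The comparison asked which genes differed between the fat of obese and lean rats. The macrophage gene Gpnmb, the chemokine Ccl9 and the pump subunit Atp1b1 were higher in obese tissue. Lower were Rbp4 and Alb, which encode secreted carriers, the adipocyte receptor Acvr1c, the fatty acid carrier Slc27a1 and the transcription factor Xbp1, among others. In all, 31 of 36685 clusters were called (0.0845%), 7 higher in obese (0.0191%) and 24 lower (0.0654%). Of the 7, 5 carried 1 gene symbol. Of the 24, 16 carried 1 gene symbol, and the 24 differed 1.58- to 8.46-fold, with 20 at least 2-fold. The groups did not overlap in 6 of the 7 and in 21 of the 24, beside 403 (1.1%) and 205 (0.559%) of all clusters. With quantile normalisation the last 2 counts were 217 and 216, and with centring 188 and 232. Since the clusters were called on these same arrays, little overlap among the calls follows in part from the choice.

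These calls rest on the spread taken over all 4 groups of the series, as do the standard errors and confidence intervals given. For a gene that varied more in obese or lean than in the treated groups, these intervals can be too narrow. A cluster had a median SD of 0.230 over the rosiglitazone and 0.225 over the resveratrol arrays, against 0.364 in obese and 0.270 in lean. With only the obese and lean arrays fitted, 0 clusters were called (limma, smallest adjusted p = 0.292), while 2861 had an unadjusted p under 0.05. When every array was centred on its own median, 0 higher and 23 lower calls were left. Leaving out 1 obese or lean array gave between 4 calls (without obese 5) and 140 (without obese 4). Of the lean arrays, the count was 52 with lean 1 left out, 71 with lean 2, 7 with lean 3, 12 with lean 4 and 13 with lean 5. Of the obese arrays, it was 91 with obese 1 left out, 17 with obese 2 and 19 with obese 3.

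Gpnmb, a membrane glycoprotein known from lipid-laden macrophages and osteoclasts, measured 7.77, 8.35, 7.19, 8.04 and 8.51 in obese 1 to 5, against 4.25, 7.15, 5.98, 5.52 and 5.31 in lean 1 to 5. Every obese array lay above every lean array, with obese 3 the lowest obese array and lean 2 the highest lean one. The means were 7.97 ± 0.52 in obese and 5.64 ± 1.05 in lean (SD, n = 5 each), a 5.04-fold difference (log2 2.33, SE 0.41, adjusted p = 0.0290, limma). In tissue of this kind, more cells that carry a transcript and more transcript per cell cannot be told apart. In the other groups of the series Gpnmb measured 6.66 ± 0.54 with rosiglitazone and 7.79 ± 0.54 with resveratrol.

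Ccl9, a chemokine known in the mouse to attract myeloid cells, measured 4.39, 4.99, 3.98, 5.17 and 5.31 in obese 1 to 5, against 1.59, 3.76, 1.56, 1.92 and 1.47 in lean 1 to 5. Of the lean arrays, 4 lay below 2 and lean 2 stood near the lowest obese array. The log2 difference was 2.71 (95% confidence interval 1.65 to 3.77, adjusted p = 0.0423, limma). Those 4 lean arrays lay below the median level of 2.55, and whether they were above background was not tested, so no exact fold is given. Atp1b1, the beta subunit of the sodium and potassium pump, measured 5.75, 5.70, 4.93, 6.10 and 6.36 in obese 1 to 5, against 3.22, 5.22, 4.04, 3.07 and 3.66 in lean 1 to 5. Here the groups overlapped through lean 2 and obese 3, and the difference was 3.80-fold (log2 1.92, adjusted p = 0.0358, limma).

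The other genes called higher lay below the median level of the array in both groups. The olfactory receptor Or5ac19 measured 1.57 ± 0.27 in obese and 0.85 ± 0.12 in lean (log2 0.72, adjusted p = 0.0236, limma). Cts7, a cathepsin known from the rodent placenta, measured 1.86 ± 0.15 in obese and 1.26 ± 0.09 in lean (log2 0.60, adjusted p = 0.0375, limma). Of the 2 called higher without a gene symbol, cluster 17630562 measured 4.64 ± 0.28 in obese and 3.20 ± 0.37 in lean (log2 1.44, adjusted p = 0.0464, limma). This call held without lean 2 and without obese 4, and ended without any other single array.

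The calls of Gpnmb and Or5ac19 ended without any one of obese 2, obese 5, lean 3, lean 4 or lean 5. That of Atp1b1 also ended without lean 1, and those of Ccl9 and Cts7 also without lean 1 or obese 3. Without lean 2, by contrast, Gpnmb differed by 2.71 (adjusted p = 0.00123), Ccl9 by 3.13 (adjusted p = 0.00352) and Atp1b1 by 2.27 (adjusted p = 0.00116, all log2, limma). With the mean of the 4 milk protein clusters as a covariate, the log2 difference was 2.14 for Gpnmb, 2.39 for Ccl9 and 1.76 for Atp1b1, and none of these 3 was called.

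**Figure D2:**
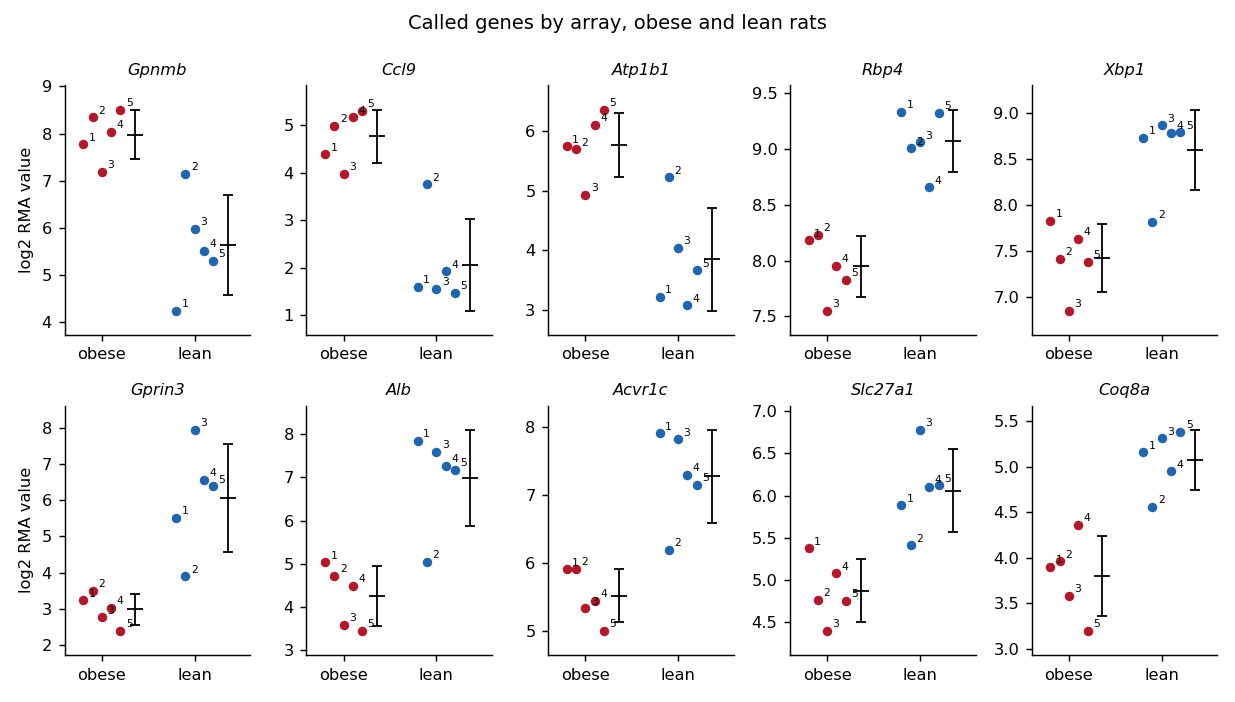
Log2 RMA values of 10 genes called between the groups, with each point 1 array numbered by its replicate, obese left of lean, and the black bar the mean with its SD (n = 5 each). Gpnmb, Ccl9 and Atp1b1 are higher in obese and the other 7 are lower, and lean 2 is the lean array nearest to the obese arrays in each panel except that of Rbp4.

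Macrophage genes were then followed as a list. Of its 12 measured members 1, Gpnmb, was called higher and 0 were called lower. At an unadjusted p under 0.05, 6 of the 12 were higher and 1 was lower. Of all clusters, 7.53% were higher and 5.83% lower. Of those above the median level, where all 12 members lay, 3.31% were higher and 10.7% lower. The median log2 difference of the list was 0.57, beside 0.05 over all clusters and -0.08 over those above the median level. With single arrays left out it lay between 0.44 and 0.75, the highest being without lean 2. It was 0.45 with the milk protein clusters as a covariate. The mean of the list lay between 4.89 and 6.04 on the obese arrays and between 4.32 and 5.67 on the lean arrays, so the groups overlapped. The lowest obese array was obese 3, and the highest lean array was lean 2.

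Lysozyme (Lyz2), an antibacterial enzyme of macrophages, measured 9.07, 9.73, 8.84, 9.37 and 10.09 in obese 1 to 5, against 7.05, 9.21, 7.81, 7.35 and 7.67 in lean 1 to 5. Its 3.04-fold difference did not pass the test with all arrays (adjusted p = 0.0835, limma) and passed it without lean 2 (log2 1.95, adjusted p = 0.00304). The lysosomal protein Cd68 measured 6.34, 6.40, 5.47, 6.41 and 7.19 in obese 1 to 5, against 4.25, 6.15, 4.88, 4.43 and 4.74 in lean 1 to 5. It likewise differed by 1.47 with all arrays (adjusted p = 0.0835) and by 1.79 without lean 2 (adjusted p = 0.00352). In both genes lean 2 lay within the range of the obese arrays, and the other 4 lean arrays lay below all of them. Lean 2 is singled out here because of these values, so leaving it out widens the differences by choice. Neither gene was called without any other single array, with adjusted p up to 0.228 for Lyz2 and 0.233 for Cd68 (limma).

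The galactose-binding lectin Lgals3 differed by 1.08 (adjusted p = 0.141) and Trem2, a lipid-sensing receptor of macrophages, by 0.82 (adjusted p = 0.289, both limma). Trem2 measured 4.79, 5.00, 3.25, 4.77 and 5.35 in obese 1 to 5, against 3.91, 4.46, 3.49, 3.62 and 3.58 in lean 1 to 5, and its one low obese array was obese 3. With both lean 2 and obese 3 left out, Lgals3 differed by 1.38 (adjusted p = 0.0303) and Trem2 by 1.32 (adjusted p = 0.00724). Choosing to leave out these 2 arrays followed after their values had been seen.

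Not all macrophage genes lay in the same direction. Cd14, a co-receptor for bacterial lipopolysaccharide, measured 6.23, 5.82, 4.98, 5.58 and 5.84 in obese 1 to 5, against 6.10, 6.36, 7.04, 6.79 and 6.41 in lean 1 to 5 (log2 difference -0.85, adjusted p = 0.198, limma). The general macrophage genes Csf1r, the receptor for the growth factor CSF-1, and Adgre1, the F4/80 antigen, differed by 0.34 (95% confidence interval -0.24 to 0.93) and -0.15 (-0.59 to 0.28). Itgax, the integrin CD11c, differed by 0.67 (adjusted p = 0.298, limma).

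Cd4, which rat macrophages are known to carry as well as helper T cells, measured 8.45, 8.45, 7.42, 8.18 and 8.75 in obese 1 to 5, against 6.05, 8.31, 6.99, 6.30 and 6.53 in lean 1 to 5. Again lean 2 lay among the obese arrays. Its difference was 1.41 with all arrays (adjusted p = 0.102) and 1.78 without lean 2 (adjusted p = 0.00127, limma). Cd4 was not called without any other single array (adjusted p up to 0.244, limma). The T cell receptor subunits Cd3e, Cd3d and Cd3g lay below the median level in both groups. Cd3e measured 1.63 ± 0.40 in obese and 1.52 ± 0.28 in lean, and Cd3d 1.99 ± 0.20 in obese and 2.01 ± 0.25 in lean. Of the 10 measured markers of T and B cells, those other than Cd4 differed by between -0.28 and 0.25. The 12 measured chemokines and cytokines, a list without Ccl9, had a median difference of -0.10, with 0 called in either direction.

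**Figure D3:**
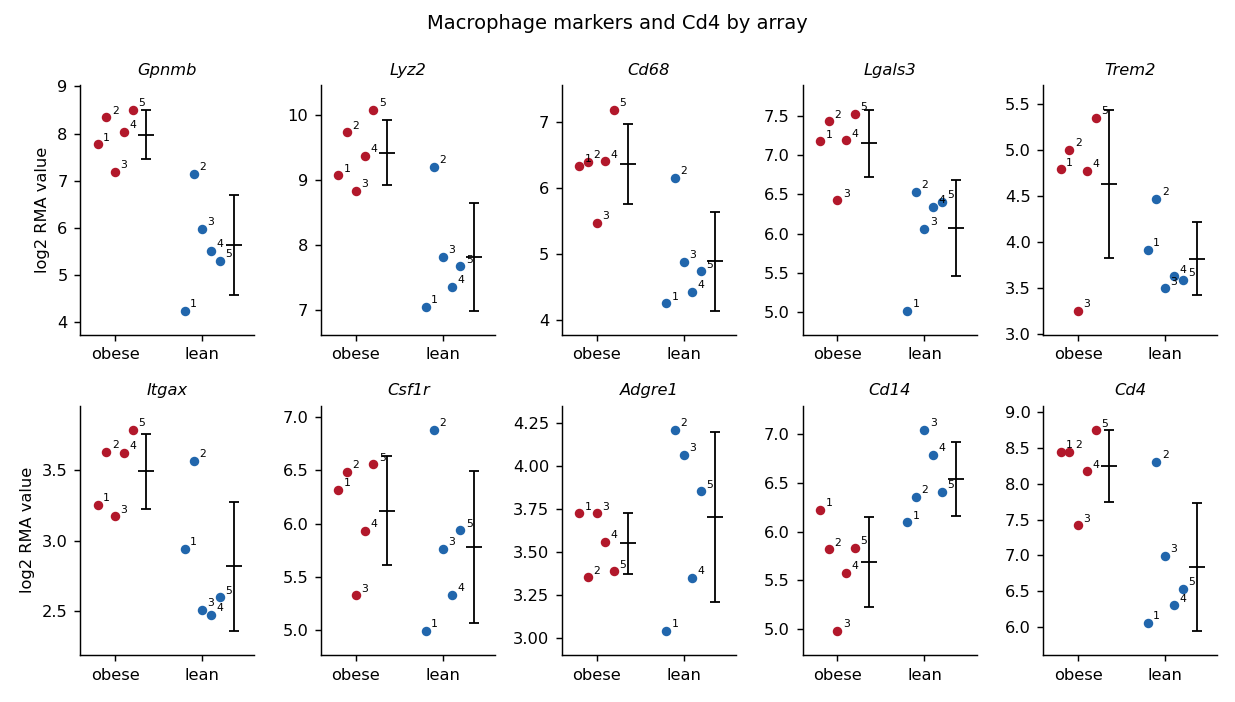
Log2 RMA values of 9 macrophage markers and Cd4, with each point 1 array numbered by its replicate, obese left of lean, and the black bar the mean with its SD (n = 5 each). Gpnmb, Lyz2, Cd68 and Cd4 have 4 lean arrays below every obese array and lean 2 near or among the obese arrays, while Csf1r and Adgre1 overlap and Cd14 has its 4 highest values in lean.

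Among the genes called lower, Rbp4, the carrier of retinol that fat also secretes, kept its call without any one of the 10 arrays and lost it with array weights (log2 -0.99, adjusted p = 0.0574, limma). It measured 8.18, 8.23, 7.55, 7.95 and 7.83 in obese 1 to 5, against 9.33, 9.01, 9.06, 8.66 and 9.32 in lean 1 to 5, with no overlap and with lean 2 among the other lean arrays. The means were 7.95 ± 0.28 in obese and 9.08 ± 0.28 in lean (SD, n = 5 each), a 2.19-fold difference (log2 -1.13, SE 0.16, adjusted p = 0.0115, limma). Rbp4, Xbp1, Gstk1 and Phlda3 are named because of their values, since they fell outside the 12 largest decreases.

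Cluster 17859372, which has no gene symbol here, also kept its call without any one of the 10 arrays. It measured 5.55 ± 0.60 in obese and 7.22 ± 0.21 in lean (log2 -1.67, adjusted p = 0.0115, limma). Cluster 17828197 measured 4.52 ± 0.54 in obese and 5.97 ± 0.32 in lean (log2 -1.44, adjusted p = 0.0375, limma), and this call held without lean 2, obese 1, obese 2 or obese 4, and ended without any other single array.

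The largest decreases were in Gprin3 and Alb. Gprin3, a protein that binds activated G proteins, measured 3.23, 3.49, 2.77, 3.02 and 2.39 in obese 1 to 5, against 5.51, 3.90, 7.95, 6.56 and 6.38 in lean 1 to 5. Its difference was 8.46-fold (log2 -3.08, 95% confidence interval -4.08 to -2.08, adjusted p = 0.0138, limma). The SD of Gprin3 was 1.49 in lean, against 0.43 in obese, 0.44 with rosiglitazone and 0.42 with resveratrol, and the interval pools these 4 groups. Obese 5 lay below the median level of 2.55, and whether it was above background was not tested, so the fold is uncertain. The lean arrays ran from lean 2 at 3.90 to lean 3 at 7.95, and none reached down to the obese arrays.

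Serum albumin (Alb), the main protein the liver secretes into plasma, measured 5.04, 4.72, 3.60, 4.50 and 3.45 in obese 1 to 5, against 7.84, 5.05, 7.60, 7.27 and 7.17 in lean 1 to 5. The difference was 6.62-fold (log2 -2.73, SE 0.40, adjusted p = 0.0115, limma), and -3.21 on the log2 scale without lean 2 (adjusted p = 1.6e-05). Lean 2 and obese 1 lay side by side, and the other 4 lean arrays lay above 7. The rats labelled rosiglitazone measured 9.59 ± 0.36 and those labelled resveratrol 4.40 ± 0.15. Of the 10 arrays left out in turn, obese 5 alone ended the calls of Gprin3, Alb and the amino acid carrier Slc43a1.

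Acvr1c (ALK7), a receptor of the TGF-beta family that in mouse adipocytes restrains the breakdown of fat, measured 5.91, 5.92, 5.34, 5.45 and 5.01 in obese 1 to 5, against 7.91, 6.20, 7.83, 7.31 and 7.15 in lean 1 to 5. The groups did not overlap, with lean 2 closest to the obese arrays (log2 -1.75, adjusted p = 0.0124, limma). The tyrosine phosphatase Ptpn4 measured 5.29, 5.09, 4.49, 5.56 and 4.79 in obese 1 to 5, against 7.35, 5.92, 7.18, 6.27 and 6.47 in lean 1 to 5 (log2 -1.59, adjusted p = 0.0155, limma). Both calls ended without lean 3 and without obese 5.

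Genes of transport across membranes were among those called lower. Slc43a1, a carrier of large neutral amino acids, measured 5.77, 5.31, 4.69, 4.89 and 4.84 in obese 1 to 5, against 6.46, 6.01, 6.29, 6.42 and 6.49 in lean 1 to 5 (log2 -1.23, adjusted p = 0.0117, limma). Slc27a1 (FATP1), which brings fatty acids into the cell, measured 5.38, 4.77, 4.40, 5.08 and 4.76 in obese 1 to 5, against 5.88, 5.41, 6.78, 6.10 and 6.12 in lean 1 to 5 (log2 -1.18, adjusted p = 0.0375, limma). Neither gene overlapped between the groups, though obese 1 and lean 2 of Slc27a1 lay side by side. The glutamate carrier Slc1a3 measured 4.69 ± 0.44 in obese and 6.24 ± 0.57 in lean, with an overlap between obese 1 and lean 2 (log2 -1.55, adjusted p = 0.0293, limma). The calls of Slc27a1 and Slc1a3 ended without any one of lean 3, lean 4, lean 5, obese 2, obese 3 or obese 5.

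The remaining decreases fell on genes of varied function. Coq8a, a kinase-like protein needed to make coenzyme Q, measured 3.80 ± 0.44 in obese and 5.07 ± 0.33 in lean (log2 -1.27, adjusted p = 0.0236, limma). Telo2, which stabilises kinases of the DNA damage response, differed by -1.25 (adjusted p = 0.0225), and B3galt1, a glycosyltransferase, by -1.19 (adjusted p = 0.0290). Sytl5, a protein of vesicle trafficking, measured 1.51 ± 0.30 in obese and 2.82 ± 0.75 in lean (log2 -1.30, adjusted p = 0.0423, limma), with an overlap. All obese arrays of Sytl5 lay below the median level of 2.55, and whether they were above background was not tested. Rpl36l6, a gene like that of a ribosomal protein, differed by -1.24 (adjusted p = 0.0375, limma), a value that is uncertain because near-identical copies could share its probes. The glutathione transferase Gstk1 differed by -1.10 (adjusted p = 0.0375) and the p53 target Phlda3 by -0.96 (adjusted p = 0.0182, both limma). Each of these calls ended without obese 5 and without lean 3. Those of Telo2 and Phlda3 also ended without 1 more lean array, lean 5 for Telo2 and lean 4 for Phlda3. Those of Coq8a, B3galt1, Sytl5, Rpl36l6 and Gstk1 ended in 5 to 7 of the 10 cases.

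Xbp1, a transcription factor of the unfolded protein response that secretory cells need, measured 7.83, 7.42, 6.85, 7.63 and 7.38 in obese 1 to 5, against 8.73, 7.82, 8.86, 8.78 and 8.79 in lean 1 to 5. Of the lean arrays, 4 lay between 8.73 and 8.86, and lean 2 lay just below obese 1, the highest obese array. The difference was 2.26-fold (log2 -1.17, adjusted p = 0.0236, limma) and the call ended without any one of lean 3, lean 4, lean 5, obese 2, obese 3 or obese 5. With the milk protein clusters as a covariate the log2 difference was -1.12 for Xbp1 and -1.16 for Rbp4. Under that covariate Rbp4, Gprin3, Alb, Acvr1c, Ptpn4, Slc43a1 and Phlda3 were still called, and Xbp1 and the other genes named so far were not.

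The promoters of Gpnmb, Alb and Xbp1 are shown because each of these called genes has a motif, bound by a factor known in its biology, in this window. Each line gives the 250 bases before the annotated start in RefSeq (GRCr8), on the strand of the gene, with the motif in capitals.
Gpnmb, chr4:79340878-79341127, plus strand: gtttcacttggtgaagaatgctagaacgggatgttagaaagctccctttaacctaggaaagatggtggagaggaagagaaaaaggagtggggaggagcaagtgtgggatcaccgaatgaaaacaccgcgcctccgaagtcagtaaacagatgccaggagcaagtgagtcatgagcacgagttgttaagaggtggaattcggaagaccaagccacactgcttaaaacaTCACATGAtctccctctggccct
Alb, chr14:17906980-17907229, minus strand: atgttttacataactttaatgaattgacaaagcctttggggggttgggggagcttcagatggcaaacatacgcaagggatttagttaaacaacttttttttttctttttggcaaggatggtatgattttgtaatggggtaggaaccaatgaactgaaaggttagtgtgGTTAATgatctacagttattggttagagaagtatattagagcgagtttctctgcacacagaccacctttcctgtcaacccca
Xbp1, chr14:84604373-84604622, plus strand: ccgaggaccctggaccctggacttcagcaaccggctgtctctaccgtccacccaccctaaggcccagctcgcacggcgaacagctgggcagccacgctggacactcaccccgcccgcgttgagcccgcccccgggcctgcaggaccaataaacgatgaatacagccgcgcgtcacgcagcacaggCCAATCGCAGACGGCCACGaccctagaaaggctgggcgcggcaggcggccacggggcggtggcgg

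Both strands were searched for each motif. The M-box TCATGTGA, bound by factors of the MITF and TFE family, matched the Gpnmb window once, on the opposite strand, 23 to 16 bases before the start, and 0.977% of 33469 promoters of this length hold it. The HNF1 motif GTTAAT, known from liver genes, matched the Alb window once, 82 to 77 bases before the start, and 6.45% of promoters hold it. The endoplasmic reticulum stress element, CCAAT and CCACG with 9 bases of any kind between them, is bound by ATF6 and XBP1. It matched the Xbp1 window once, 65 to 47 bases before the start, and 0.0657% of promoters hold it. The motifs were chosen after the values of the genes had been seen, and a match describes the sequence only.

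Genes of insulin signalling and of fat storage were given by lists, in none of which a member was called. Of 12 measured genes of insulin signalling and glucose uptake, 10 had a negative difference, and 3 were lower and 1 higher at an unadjusted p under 0.05. Their median log2 difference was -0.34, beside -0.08 over the clusters above the median level, and -0.23 without obese 3. When the SD of the array entered the fit as a covariate it was -0.12. Among those clusters, 3.31% were higher and 10.7% lower at an unadjusted p under 0.05. Their means lay between 4.55 and 5.33 on the obese arrays and between 5.19 and 5.47 on the lean arrays, with the lowest value in obese 3.

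The insulin receptor Insr measured 5.15, 5.30, 4.04, 5.24 and 4.79 in obese 1 to 5, against 5.43, 5.59, 6.19, 6.15 and 5.90 in lean 1 to 5. The groups did not overlap, and the difference of -0.95 did not pass the test (adjusted p = 0.0835, limma). Its call appeared without lean 1 and without obese 4, and with both lean 2 and obese 3 left out (-0.80, adjusted p = 0.0310). Irs1, which passes the signal on from the receptor, differed by -0.98 (adjusted p = 0.171). Pde3b, the phosphodiesterase by which insulin restrains the breakdown of fat, measured 7.35, 7.19, 6.07, 6.63 and 6.50 in obese 1 to 5, against 7.75, 7.60, 8.04, 7.48 and 7.59 in lean 1 to 5. Every lean array lay above every obese array (log2 -0.94, adjusted p = 0.0761, limma), and Pde3b was called without obese 1.

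Of 12 measured genes of fatty acid and triglyceride synthesis, 9 had a negative difference, 5 were lower and 0 higher at an unadjusted p under 0.05 (10.7% and 3.31% of clusters above the median level), and the median was -0.31. It was -0.15 without lean 4, -0.16 without lean 5 and -0.19 with the SD of the array in the fit. Dgat1, which completes triglyceride synthesis, measured 6.11, 6.10, 4.71, 6.20 and 5.18 in obese 1 to 5, against 6.54, 6.47, 6.61, 6.43 and 6.64 in lean 1 to 5. The lean arrays lay close together and above all obese arrays, and the difference of -0.88 had an adjusted p of 0.146 (limma). Me1, which supplies NADPH for fatty acid synthesis, differed by -1.02 (adjusted p = 0.204) and the phosphatidate phosphatase Lpin1 by -0.67 (adjusted p = 0.194, both limma). The 8 measured genes of lipolysis had a median of -0.12 (-0.06 without lean 1, -0.22 without obese 4), with 2 lower and 0 higher at an unadjusted p under 0.05.

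Mitochondrial genes also had mostly negative differences. Of 12 genes of fatty acid oxidation, 11 had a negative difference, with a median of -0.32 and 1 lower at an unadjusted p under 0.05. Of 11 genes of oxidative phosphorylation and the citric acid cycle, 9 had a negative difference, with a median of -0.29 and 5 lower at an unadjusted p under 0.05. Of all clusters above the median level, 10.7% were lower at that p, which 1 of 12 does not exceed. Without obese 3, whose means were the lowest of the 10 arrays in both lists, the medians were -0.12 and -0.15. When the SD of the array entered the fit as a covariate they were 0.09 and -0.03, so the direction of the first list turned.

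Adipocyte genes as a list had differences of both signs in equal number. Of 12 measured members 6 had a positive and 6 a negative difference, with a median of -0.01, and array means of 9.17 to 9.92 in obese and 9.44 to 9.82 in lean. The lipid droplet protein Plin1 measured 10.03 ± 0.27 in obese and 9.95 ± 0.32 in lean, a difference of 0.08 with a 95% confidence interval of -0.24 to 0.40. That of Adipoq was -0.06 (-0.26 to 0.14). These intervals bound the differences and do not show that the groups were alike.

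Within this list leptin (Lep) had the largest difference, which was not called. It measured 10.23, 10.11, 9.24, 9.65 and 9.99 in obese 1 to 5, against 8.77, 10.32, 6.00, 8.28 and 8.71 in lean 1 to 5. Lean 2 was the highest of all 10 arrays, and the other 4 lean arrays lay below every obese array. The difference of 1.43 (95% confidence interval 0.41 to 2.44) was not called with all arrays (adjusted p = 0.259) or without lean 2 (1.90, adjusted p = 0.0674), and was called with both lean 2 and obese 3 left out (2.05, adjusted p = 0.0403, limma). Complement factor D (Cfd, adipsin), a protease that adipocytes secrete, measured 8.27, 8.67, 7.77, 8.09 and 7.87 in obese 1 to 5, against 9.65, 7.88, 9.89, 8.94 and 8.96 in lean 1 to 5. It differed by -0.93 with all arrays (adjusted p = 0.198) and by -1.23 without lean 2 (adjusted p = 0.0176, limma), the lean array with the lowest value. Cfd was not called without any other single array (adjusted p up to 0.416, limma).

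The other lists gave no calls. The 13 measured collagen and matrix genes had a median of 0.01 with all arrays and 0.20 without obese 3, and 0 had an unadjusted p under 0.05 in either direction. The 9 fibroblast markers had a median of 0.12, the 7 endothelial markers -0.13, the 12 skeletal muscle markers -0.07, the 9 epidermis markers 0.05, the 3 erythrocyte markers -0.23 and the 4 nerve markers -0.17. The 13 targets of PPAR gamma, the nuclear receptor that drives fat cell genes, had a median of 0.08. The 7 thermogenic genes, 5 of them below the median level, had a median of 0.21. Of the leptin list, Lep, Stat3 and Jak2 were matched, the last 2 being parts of the pathway by which the leptin receptor signals, and the median of -0.07 is the value of Stat3. The 13 immediate early and heat shock genes, which can mark the handling of tissue, had a median of -0.16. At an unadjusted p under 0.05, 3 were lower and 0 higher. All 13 lay above the median level, where 10.7% of clusters were lower and 3.31% higher at that p. Of these 13 genes, Egr1 measured 5.72 ± 0.72 in obese and 6.96 ± 0.48 in lean (log2 -1.24, adjusted p = 0.207, limma). The medians of the epidermis, collagen, adipocyte, leptin and lymphocyte lists lay close to 0 and changed sign with quantile normalisation, with centring or with both. Leaving out 1 array turned the median of the fibroblast list to -0.16 (lean 1), and those of the muscle and chemokine lists to 0.13 and 0.04 (lean 3). The endothelial and nerve medians turned to 0.09 and 0.03 with the SD of the array in the fit. Without single arrays the thermogenic median lay between 0.13 and 0.28, and the erythrocyte one between -0.31 and -0.14. The immediate early one lay between -0.27 and -0.11, and that of PPAR gamma targets between 0.01 and 0.11. With the milk protein clusters as a covariate, the median of PPAR gamma targets turned to -0.0099 and that of the muscle list to 0.12.

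**Figure D4:**
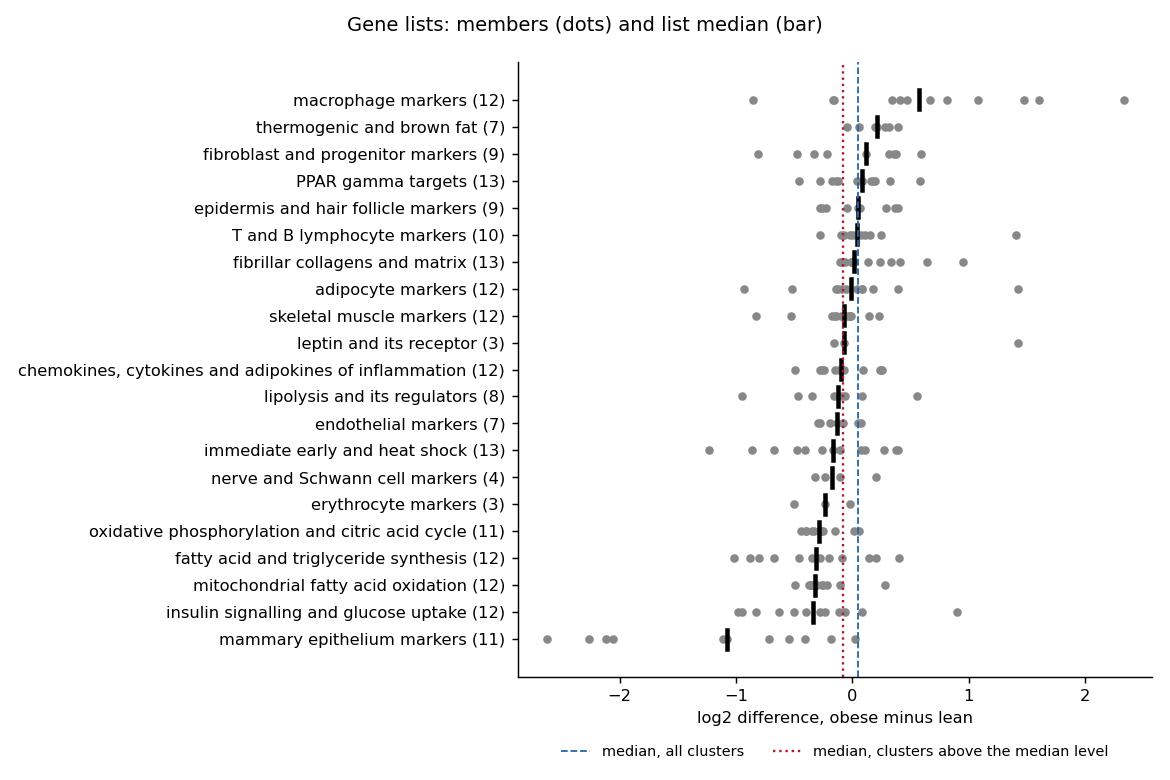
Log2 difference, obese minus lean, of each measured member (dots) of 21 gene lists, with the list median as a black bar and the number of members in brackets. The matched members of the list named for leptin and its receptor are Lep, Stat3 and Jak2. Macrophage markers have the highest median (0.57), and mammary epithelium markers the lowest (-1.08). The dashed line is the median of all clusters (0.05), and the dotted line that of clusters above the median level (-0.08).

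The difference between the groups also varied with the level of the cluster. In 10 equal groups by mean level, the median log2 difference was 0.17 in the dimmest and -0.16 in the brightest, and 0.14 and -0.04 without obese 3. Of clusters above the median level, 68 (0.371%) were higher and 188 (1.02%) lower in obese without overlap between the arrays, while of all clusters 403 were higher and 205 lower, a split that did not hold with quantile normalisation (217 and 216) or centring (188 and 232). The medians of the dimmest and brightest groups were 0.06 and -0.04 with quantile normalisation, and 0.10 and -0.23 with centring. Within an array, values had an SD of 1.81 ± 0.09 in obese and 1.89 ± 0.04 in lean, a difference of -0.086 (two-sided exact permutation p = 0.0556, 0.111 after adjustment over 2 measures, n = 5 each). The smallest p this test can give is 0.00794. The medians of the arrays were 2.64 ± 0.10 in obese and 2.57 ± 0.07 in lean (two-sided exact permutation p = 0.222). All measured members of the lists of fat storage and of mitochondrial genes lay above the median level, where the median difference over all clusters was -0.08.

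**Figure D5:**
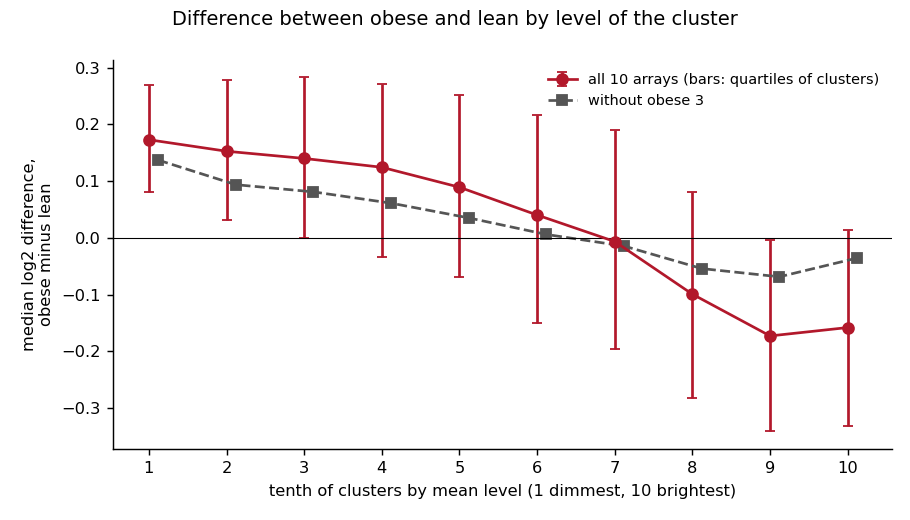
Median log2 difference, obese minus lean, in each of 10 equal groups of clusters ordered by mean level, with all 10 arrays (circles, bars spanning the quartiles of the clusters) and without obese 3 (squares). The medians run from 0.17 in the dimmest to -0.16 in the brightest group, and from 0.14 to -0.04 without obese 3.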

How the data were processed

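The data were 10 arrays of obese and lean rat subcutaneous tissue, fitted with 10 further arrays of the same series. Frozen tissue was extracted for total RNA, of which 100 ng was labelled with biotin, per the labels' protocols. Per the submitters' processing notes, the deposited log2 values were made with RMA, which removes background, puts arrays on one scale and combines the probes of a cluster. Not given in the sources used here were its software, settings and annotation, and the array strips, scan dates and batches, so batch differences could not be tested.

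The values were used as deposited, with 0 missing and with no filter in the main fit. The principal components used only the clusters above the median level. A linear model of the 4 groups was fitted on all 20 arrays (lmFit and eBayes in limma 3.58.1, R 4.3.3), and the contrast obese minus lean was adjusted over 36685 clusters by the Benjamini-Hochberg method. Names came from the platform annotation of the array, checked by gene ID against RefSeq, where 14670 of 14824 clusters with 1 symbol matched. Of the genes named, 36 of 42 had a promoter in the RefSeq table. The rule for named genes took the 12 largest called increases and decreases with 1 symbol, and up to 6 members of each list with a called member. Other genes were named after their values had been seen. The comparison and the 21 gene lists were chosen with earlier results of these data known. Plots used matplotlib 3.10.9 (Python 3.11.15). The code was tested on simulated data. The number of arrays limits the precision, with a median standard error of 0.188 for a log2 difference. The replicates are biological per the labels, which do not say how animals were allocated.

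The alternatives were quantile normalisation, centring, filters on low levels, array weights, a trended and robust prior, fitting these groups alone, a replicate block, the SD of an array as covariate, a 1.5-fold minimum, and leaving out each array. Chosen after seeing the data were a milk protein covariate, and leaving out lean 2 with obese 3.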

Additional observations from a re-analysis of the deposited data

Results flagged for a closer look

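Among the named genes and groups, 96 combinations of 5 arrays were examined for a single array far from the rest, by Dixon's test at a critical value of 0.71. This singled out 4 of them, where chance alone would single out about 4.8. Trem2, a lipid-sensing receptor of macrophages, measured 3.25 in obese 3, and 4.77 to 5.35 in the other obese arrays. Ccl9, a chemokine, measured 3.76 in lean 2, and 1.47 to 1.92 in the other lean arrays. Alb, serum albumin, measured 5.05 in lean 2, and 7.17 to 7.84 in the other lean arrays. Xbp1, a transcription factor of the unfolded protein response, measured 7.82 in lean 2, and 8.73 to 8.86 in the other lean arrays. Of these, 3 lie in lean 2, each towards the obese arrays, and what sets that array apart was not tested.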

How the results depend on the processing

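The number of arrays limits every count here, and several settings moved the counts or the balance of higher and lower calls. The 31 calls became 25 with quantile normalisation (23 shared), 23 with centring (22 shared) and 31 with the lower quartile of level left out. With the lower clusters left out at the median level they became 43 (27 shared). The calls became 38 with a trended and robust prior and 31 with a 1.5-fold minimum. They became 3 with array weights, among them Alb but not Rbp4, 0 with only the obese and lean arrays fitted, 38 with the SD of an array as covariate (27 higher and 11 lower, 12 shared), 13 with the milk protein covariate (12 shared) and 176 with both lean 2 and obese 3 left out (126 higher and 50 lower, against 7 and 24, with 30 shared). Leaving out 1 obese or lean array gave 4 to 140, and leaving out 1 resveratrol array gave 18 (without resveratrol 3), 19 (without resveratrol 4), 19 (without resveratrol 5) or more. The fit of only these groups had 11.6 degrees of freedom, against 19.8 with 4 groups. The treated groups had a smaller median SD of a cluster than obese and lean. The causes of the changes in the counts were not tested.

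The 24 calls of at least 2-fold became 3 with array weights, 0 with only these groups fitted, 9 with the milk protein covariate, 110 without lean 2 and obese 3, and 3 to 78 without single arrays, with 15 without resveratrol 3. The 608 clusters without overlap became 433 with quantile normalisation and 420 with centring, and 347 and 256 under the filters at the lower quartile and the median of level, which test fewer clusters, and 799 to 1568 without single arrays, which leaves fewer arrays to overlap.

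The labels do not say whether the replicate numbers of the titles pair the samples, and correlations between arrays cannot decide it. The correlations of same-numbered arrays, as deviations from their group means, were -0.49, 0.06, -0.13, 0.38 and -0.11. The highest correlations with another number were 0.55, 0.22, 0.51, 0.26 and 0.26, so replicate 4 alone was closest to its own number. With the number as a replicate block, 32 clusters were called (10 higher, 22 lower), of which 21 were shared.

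The median difference in the dimmest of 10 groups by level became 0.0567 with quantile normalisation, and that in the brightest -0.0402. The difference between the medians of the arrays turned to -0.081 when clusters below the median level were left out (two-sided exact permutation p = 0.238). That filter also took the median SD of a cluster to 0.401 in obese and 0.312 in lean, and leaving out single arrays gave 0.291 to 0.370 in obese and 0.228 to 0.278 in lean. Leaving out single arrays kept the difference in SD between -0.106 and -0.049.

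Among named genes, Cd3e turned to -0.0062 with quantile normalisation, -0.0147 with array weights, -0.26 with the SD covariate and -0.16 without lean 2 and obese 3, and lay between -0.0606 (without obese 3) and 0.1855 without single arrays. With the milk protein covariate, Plin1 turned to -0.0422, and Csn3, Csn1s1 and Lalba, from which the covariate was made, to 0.28, 0.60 and 0.40. Of the genes named, 42 and 3 numbered clusters were run under the settings, and the others of these kept their direction.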

Other observations

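Receptors for smell, pheromones and taste, which are known from sensory tissue, formed 1298 of the clusters (3.54%), of which 90 lay above the median level. Their median log2 difference was 0.22, beside 0.17 in the dimmest of 10 equal groups of clusters. Of the 1298, 29 (2.23%) were higher and 2 (0.154%) were lower in obese without overlap between the arrays, where 1.1% and 0.559% of all clusters were. In the dimmest of the 10 groups 151 of 3669 clusters were higher without overlap, a larger share than that of the receptors. Of the receptors 1, Or5ac19, was called, where 0.0845% of all clusters were.

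The second principal component of the obese and lean arrays held 16.8% of the variance of the clusters above the median level. On it, obese 3, obese 4, lean 3, lean 4 and lean 5 lay on one side and the other 5 arrays on the other. The genes with the largest loadings were Csn1s1, Lalba, Csn3 and Olah, an enzyme known to shorten the fatty acids of milk in the mammary gland, followed by Oprpn and the casein Csn1s2a. Gpnmb measured 7.19 and 8.04 in the 2 obese arrays of the first side, and 7.77 to 8.51 in the other obese arrays.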
